A study of Mus musculus with 4 samples.

Results

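Trem2, Tyrobp, Plcg2, Inpp5d, Syk, Cd33, Vav1 and Pik3ap1 encode the microglial receptor TREM2, its adaptor and proteins that carry or restrain its signal. They were chosen by symbol and are 8 of the 27998 genes counted in each library. The study measured RNA in single nuclei of mouse hippocampus with 10x 3′ chemistry, and its title concerns tau-associated neurodegeneration and apoE. There were 4 libraries, all from B6 mice aged 9 months: P301S/EKO (7 pooled hippocampi), P301S (8), EKO (7) and WT (7). P301S names a mutation of human tau, and EKO is the label of the lines without apoE, in which Apoe was at 19.6 CPM in P301S/EKO and 16.4 CPM in EKO nuclei, against 6402 CPM in P301S and 1932 CPM in WT nuclei. CPM is the UMI count of a gene scaled to 1e6 UMIs of the nuclei summed, and a UMI marks 1 captured RNA molecule. The promoter that drives the tau transgene is not given in the labels. Each genotype was 1 pooled library, so there is no spread between animals, no test between genotypes was possible, and every interval is a 95% counting interval that covers counting error only.

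TREM2 is a lipid-sensing receptor on the surface of microglia and other myeloid cells. It has no signalling motif of its own and pairs with DAP12, the product of Tyrobp, whose ITAM is phosphorylated by Src-family kinases and then binds the kinase SYK. SYK in turn engages phospholipase C gamma 2 (Plcg2), the exchange factor VAV1 and, through adaptors such as BCAP (Pik3ap1), phosphoinositide 3-kinase. SHIP1, encoded by Inpp5d, removes a phosphate from the lipid that this kinase makes, and CD33 is a sialic acid-binding receptor that recruits phosphatases against ITAM signalling in human myeloid cells. In mouse models with amyloid pathology Trem2 is needed for microglia to reach their disease-associated state in full.

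Trem2 lies on the plus strand at chr17:48346401-48354147 of GRCm38 (mm10), Tyrobp at chr7:30413760-30417585, Inpp5d at chr1:87620312-87720507 and Plcg2 at chr8:117498291-117635142, all as gene bodies in GENCODE vM21. Tyrobp lies 127 bases from Hcst, a related adaptor on the other strand, and an annotated microRNA gene lies on the other strand within Plcg2. RefSeq promoter windows on GRCm38.p6, running from 250 bases before to 50 bases after the start site, were found for 7 of the 8 genes. They were searched on both strands for GAGGAAGT, an 8-letter form of the sequence bound by PU.1, the ETS factor of the myeloid lineage. The windows of 2 of the 7 genes, Inpp5d and Vav1, held it, against those of 3.69% of 27025 genes. By window the share was 3.20% of all 32851. In Inpp5d it began 20 bases and in Vav1 11 bases before the start site. The windows of those 2 genes are shown with the match in capitals, beside those of Trem2, the receptor, and Plcg2, which had many of its UMIs outside microglia. All 4 are on the plus strand, at chr17:48346151-48346450 for Trem2, chr1:87620062-87620361 for Inpp5d, chr17:57278850-57279149 for Vav1 and chr8:117498025-117498324 for Plcg2. The absence of these letters from a window says nothing about binding of the factor.
Trem2: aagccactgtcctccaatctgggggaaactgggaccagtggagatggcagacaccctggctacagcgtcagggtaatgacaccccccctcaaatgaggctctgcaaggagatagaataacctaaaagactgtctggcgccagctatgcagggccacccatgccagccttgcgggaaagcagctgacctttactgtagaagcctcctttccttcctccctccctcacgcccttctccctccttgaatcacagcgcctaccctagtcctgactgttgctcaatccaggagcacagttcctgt
Inpp5d: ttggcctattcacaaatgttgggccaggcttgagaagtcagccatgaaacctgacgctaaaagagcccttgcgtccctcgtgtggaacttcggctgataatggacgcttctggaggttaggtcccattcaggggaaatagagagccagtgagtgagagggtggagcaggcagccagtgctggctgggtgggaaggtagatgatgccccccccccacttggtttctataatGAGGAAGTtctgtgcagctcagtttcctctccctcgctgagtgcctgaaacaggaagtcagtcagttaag
Vav1: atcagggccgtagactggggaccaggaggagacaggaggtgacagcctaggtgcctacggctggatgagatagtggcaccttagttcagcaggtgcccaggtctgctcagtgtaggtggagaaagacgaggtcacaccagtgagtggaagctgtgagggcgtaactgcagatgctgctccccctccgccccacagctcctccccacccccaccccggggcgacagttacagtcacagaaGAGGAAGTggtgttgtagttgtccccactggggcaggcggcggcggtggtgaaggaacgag
Plcg2: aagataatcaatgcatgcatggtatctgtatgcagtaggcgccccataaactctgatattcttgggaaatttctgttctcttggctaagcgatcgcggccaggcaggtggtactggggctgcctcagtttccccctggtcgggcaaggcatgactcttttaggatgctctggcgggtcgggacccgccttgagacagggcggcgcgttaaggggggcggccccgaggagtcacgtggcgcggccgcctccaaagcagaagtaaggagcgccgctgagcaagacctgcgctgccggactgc

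The libraries held 3156 to 6767 barcodes, of which 2860 to 5274 were kept as nuclei. Any pair of libraries shared 19 to 69 barcode sequences, at most 1.15% of the smaller library. Clustering left out the 8 genes, so that their levels did not place a nucleus. The microglia-like cluster held 335 nuclei in P301S/EKO, 311 in P301S, 139 in EKO and 208 in WT, with median depths of 1773, 3263, 1871 and 3923 UMIs in the same order, and all 16 microglia markers were detected in every library. It made up 5.35% of kept nuclei and 9.21% of their UMIs. Its nuclei differed between libraries in neuronal RNA. Nuclei in which 20 neuronal genes took at most 50% of the share seen in CA1 neuron-like nuclei, called neuron-poor here, made up 49.9% in P301S/EKO, 41.2% in P301S, 54.7% in EKO and 20.2% in WT, the last being 42 nuclei. The summed level of 16 microglial reference genes also differed, at 9849 CPM in P301S/EKO, 7327 in P301S, 9292 in EKO and 4457 in WT. In neuron-poor nuclei it was at 14416, 10714, 12215 and 7077 CPM in the same order. The main ratios are therefore given over all UMIs, in neuron-poor nuclei where the counts allow, and over the reference UMIs. The part of neuronal RNA in the differences was not tested beyond these values.

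Of the other cell types a microglia-like nucleus could hold, the 8 perivascular macrophage markers summed to 105 CPM in P301S/EKO, 161 in P301S, 162 in EKO and 65.0 in WT. Stab1, which microglia can also express, gave most of these UMIs. Mrc1 had 0 UMIs in P301S/EKO, 18 in P301S, 4 in EKO and 3 in WT, and Ms4a7 had 3, 41, 0 and 0 in the same order. The 8 monocyte or neutrophil markers summed to 22 UMIs in P301S/EKO, 40 in P301S, 3 in EKO and 15 in WT. Of these Cxcr2 gave 14, 25, 3 and 14, Ly6c2 1, 5, 0 and 0, and Ccr2 1, 5, 0 and 1. The 7 T and NK cell markers summed to 8 UMIs in P301S/EKO, 23 in P301S, 0 in EKO and 5 in WT, and Cd3e was at 0 in all 4 libraries. The 7 B cell markers summed to 13 UMIs in P301S/EKO, 30 in P301S, 9 in EKO and 29 in WT, and Ebf1, which vascular mural cells also express, gave 6, 24, 3 and 23 of them. The B cell genes Ms4a1 and Pax5 were at 0 in all 4. Oligodendrocyte markers summed to 5533 CPM in P301S/EKO, 4831 in P301S, 5751 in EKO and 3897 in WT, and astrocyte markers to 1011, 1306, 734 and 960 CPM in the same order. The part of these cell types in the levels below was not tested.

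Trem2, the receptor, was the most counted gene of the chain in microglia-like nuclei. It had 343 UMIs or 444 CPM (399 to 494) in P301S/EKO, 550 UMIs or 407 CPM (374 to 443) in P301S, 113 UMIs or 359 CPM (296 to 431) in EKO and 169 UMIs or 172 CPM (147 to 200) in WT. WT stood below the other 3 libraries, whose intervals overlapped one with the next. In neuron-poor nuclei Trem2 was at 703 CPM in P301S/EKO, 659 in P301S, 422 in EKO and 358 in WT, so that both libraries with the tau transgene lay above both libraries without it and EKO lay within the interval of WT. The share of microglia-like nuclei with a Trem2 UMI was 54.9% in P301S/EKO, 65.6% in P301S, 50.4% in EKO and 47.6% in WT. After each nucleus was thinned to 500 UMIs, with no nucleus shallower than that, the shares were 22.1% (17.8 to 26.9), 18.7% (14.5 to 23.4), 19.4% (13.2 to 27.0) and 10.1% (6.36 to 15.0). In CA1 neuron-like nuclei, which should lack the gene, thinned shares were 1.08% in P301S/EKO, 0 of 255 nuclei in P301S (up to 1.44%), 0.48% in EKO and 0.36% in WT, and median depths were 1744, 2663, 1656 and 2106 UMIs.

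Tyrobp, the adaptor, had 101 UMIs or 131 CPM (107 to 159) in P301S/EKO, 182 UMIs or 135 CPM (116 to 156) in P301S, 28 UMIs or 88.9 CPM (59.1 to 129) in EKO and 51 UMIs or 51.8 CPM (38.6 to 68.1) in WT. Its neuron-poor levels were 240, 204, 102 and 65.9 CPM in the same order. Both libraries with the tau transgene were above both without it in either set of nuclei, although the EKO interval overlapped theirs over all nuclei and that of P301S in neuron-poor nuclei.

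Inpp5d, the inhibitory phosphatase, had 75 UMIs or 97.2 CPM (76.5 to 122) in P301S/EKO, 143 UMIs or 106 CPM (89.3 to 125) in P301S, 21 UMIs or 66.7 CPM (41.3 to 102) in EKO and 42 UMIs or 42.6 CPM (30.7 to 57.6) in WT. In neuron-poor nuclei the levels were 146, 142, 58.2 and 104 CPM, with EKO then lowest on 8 UMIs and WT resting on 11. Cd33, the sialic acid receptor, had 27 UMIs or 35.0 CPM (23.1 to 50.9) in P301S/EKO and 66 UMIs or 48.9 CPM (37.8 to 62.2) in P301S. It had 10 UMIs or 31.8 CPM (15.2 to 58.4) in EKO and 20 UMIs or 20.3 CPM (12.4 to 31.4) in WT. The P301S value was the highest, but its interval overlapped those of P301S/EKO and EKO. In neuron-poor nuclei Cd33 was at 44.7 CPM in P301S/EKO, 61.4 in P301S, 58.2 in EKO (8 UMIs) and 28.2 in WT (3 UMIs).

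The genes that act directly below DAP12 were sparsely counted. Plcg2 had 13 UMIs or 16.8 CPM in P301S/EKO, 17 UMIs or 12.6 CPM in P301S, 7 UMIs or 22.2 CPM in EKO and 4 UMIs or 4.06 CPM (1.11 to 10.4) in WT. Syk had 3 UMIs or 3.89 CPM (0.80 to 11.4) in P301S/EKO, 13 UMIs or 9.63 CPM (5.13 to 16.5) in P301S, 9 UMIs or 28.6 CPM (13.1 to 54.3) in EKO and 5 UMIs or 5.08 CPM (1.65 to 11.8) in WT. Syk was thus highest in EKO, whose interval overlapped that of P301S but not those of P301S/EKO and WT. In neuron-poor nuclei EKO had 4 Syk UMIs or 29.1 CPM (7.93 to 74.6), an interval that overlapped those of all other libraries. Vav1 had 9, 17, 4 and 9 UMIs, between 9.14 and 12.7 CPM with no library apart from the others. Pik3ap1 had 1 UMI in P301S/EKO, 1 in P301S and 0 in EKO and WT, where a count of 0 allows up to 11.7 CPM in EKO and 3.74 CPM in WT, so no difference was detectable at this depth.

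**Figure D1:**
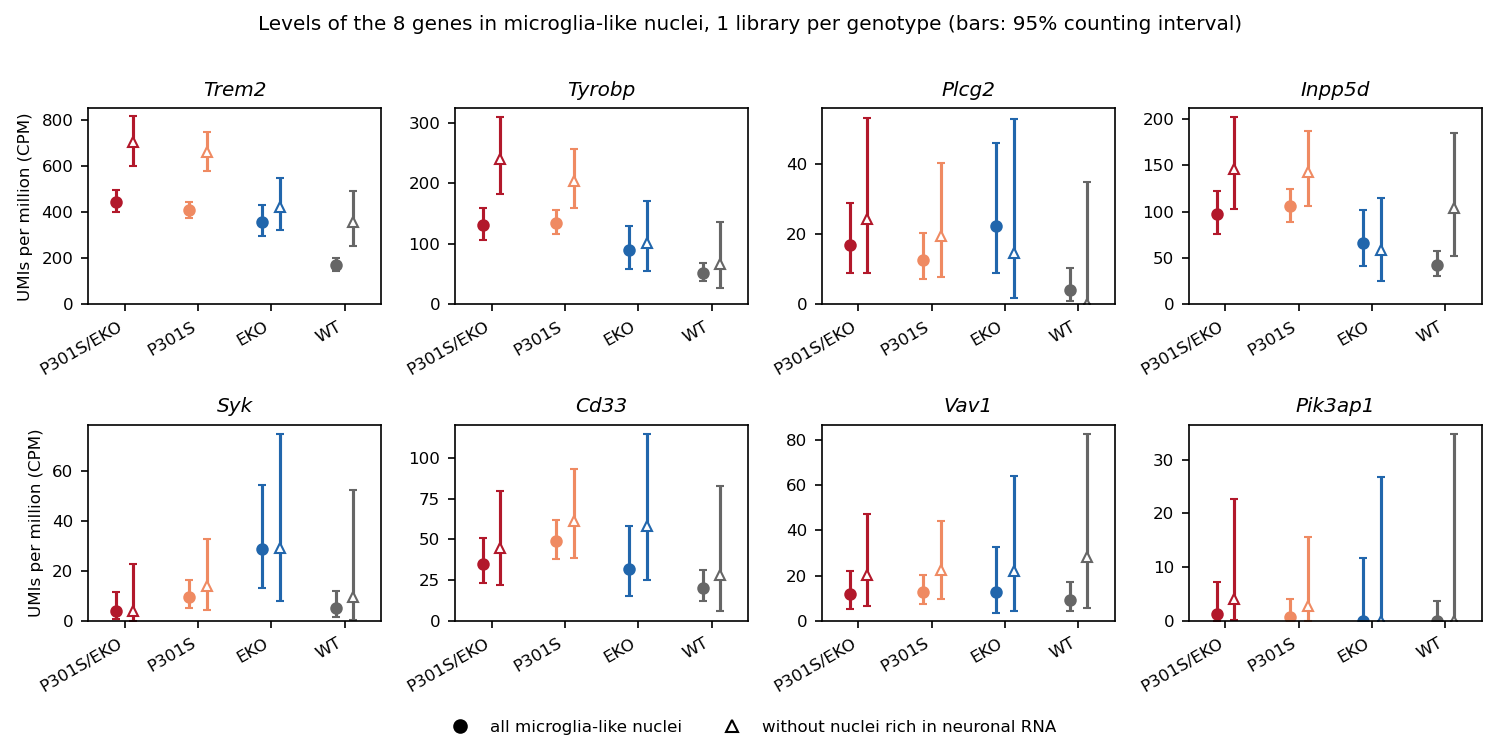
Levels of the 8 genes in microglia-like nuclei, in CPM on a linear axis that differs between panels, with 1 library per genotype. Circles are all microglia-like nuclei, triangles the neuron-poor ones, and bars 95% Poisson counting intervals. Trem2 and Tyrobp have their highest values in the libraries with the tau transgene in both sets of nuclei. The EKO interval overlaps that of P301S over all nuclei and, for Tyrobp, in neuron-poor nuclei. Syk is highest in EKO, where its neuron-poor value rests on 4 UMIs and its interval overlaps those of the other libraries.

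The comparison of P301S with WT asks how the chain stands in mice with mutant tau and intact Apoe. Trem2 was 2.37-fold higher in P301S (2.00 to 2.84), Tyrobp 2.60-fold (1.90 to 3.63), Inpp5d 2.48-fold (1.75 to 3.59), Cd33 2.41-fold (1.44 to 4.19) and Plcg2 3.10-fold (1.01 to 12.7). These 5 of the 6 genes with at least 20 UMIs over both libraries were at least 1.5-fold higher, against 19.6% of the 10407 genes with that many UMIs, and none was as much lower, against 8.45%. Plcg2 reached the minimum mainly through P301S, with 17 UMIs there and 4 in WT. The median log2 ratio of the 6 was 1.28, against 0.10 over all those genes. Vav1 had a ratio of 1.38 (0.58 to 3.51), and Syk, with 18 UMIs in all, a ratio of 1.90 (0.63 to 6.80).

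The size of these ratios depended on the denominator. The reference genes were themselves 1.64-fold higher in P301S, which lowers every log2 ratio over the reference by 0.72. Over reference UMIs, Trem2 was 1.44-fold higher in P301S (1.21 to 1.73), Tyrobp 1.58-fold (1.16 to 2.21) and Inpp5d 1.51-fold (1.07 to 2.19). Over the same UMIs Plcg2 had a ratio of 1.89, Cd33 1.465 and Vav1 0.84. Thus 3 of the 6 genes, Tyrobp, Inpp5d and Plcg2, were at least 1.5-fold higher over the reference, and 0 were as much lower. In neuron-poor nuclei Trem2 was 1.84-fold higher (1.30 to 2.67) and Tyrobp 3.09-fold (1.43 to 7.96), while Inpp5d had a ratio of 1.37 (0.71 to 2.92). In those nuclei 3 of the 4 genes with enough UMIs were at least 1.5-fold higher, against 24.5% of 4189 genes, and none was as much lower, against 19%.

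Other genes of the pathway were read from lists chosen with earlier results of these data known. A listed gene could reach the minimum of 20 UMIs through P301S alone, so the counts over these lists describe them only. Shares of all genes were taken over all UMIs alone, so list counts over reference UMIs have no such share beside them. Of the 7 measured genes of other DAP12 or ITAM receptors, P301S exceeded WT by at least 1.5-fold in 5, against 19.6% of all genes, and none was as much lower, against 8.45%. Over reference UMIs 2 of the 7 were as much higher, the activating receptor gene Fcgr3 and Fcgr2b, which was listed although its receptor is inhibitory. As much lower was 1, Csf1r, which is itself 1 of the 16 reference genes. Among the 7, Fcer1g, the gamma chain that serves Fc receptors as DAP12 serves TREM2, was at 91.9 CPM in P301S and 40.6 CPM in WT. Its ratio was 2.26 (1.57 to 3.32). Fcgr2b, the inhibitory Fc gamma receptor, was at 61.5 CPM in P301S and 13.2 CPM in WT, a ratio of 4.66 (2.58 to 9.12). Of 11 ITIM receptors and phosphatases, 8 were at least 1.5-fold higher, against the same 19.6%, and 6 were so over reference UMIs. Lilrb4a, an inhibitory receptor, had 121 UMIs in P301S and 3 in WT, a ratio of 29.4 (9.83 to 145), and Ptprc, the CD45 phosphatase that acts on Src-family kinases, a ratio of 4.87 (3.33 to 7.36).

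Of 17 kinases and scaffolds below the ITAM, P301S exceeded WT by at least 1.5-fold in 7 and fell short of it by as much in 1, against 19.6% and 8.45% of all genes. Over reference UMIs 6 were as much higher and 4 as much lower. Blnk, a scaffold that SYK phosphorylates, had a ratio of 4.44 (2.33 to 9.33) and Lat2, a membrane scaffold, 4.38 (2.22 to 9.59). Fgr, a Src-family kinase, had 20 UMIs in P301S and 0 in WT, which is 4.86-fold higher against an assumed floor of 3 UMIs in WT. Of 21 genes of the PI3K, calcium and NF-kB branch, 8 were at least 1.5-fold higher, against 19.6% of all genes, among them Prkcd, a protein kinase C that diacylglycerol activates, with a ratio of 2.97 (2.10 to 4.29). Over reference UMIs 3 of the 21 were as much higher and 4 as much lower. Of the MS4A and SIGLEC genes, which reached the minimum through P301S, Ms4a7 had 41 UMIs in P301S and 0 in WT. That is 9.97-fold higher against the same floor, with a lower counting limit of 7.75. Ms4a7 is also one of the macrophage markers above.

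The comparison of P301S/EKO with P301S asks whether the chain differs without Apoe in mice with mutant tau. Over all UMIs none of the 6 genes with enough UMIs was 1.5-fold higher or lower, against 6.81% of 10130 genes higher and 19.4% lower. Trem2 had a ratio of 1.09 (0.95 to 1.25), Tyrobp 0.97 (0.75 to 1.24), Inpp5d 0.92 (0.68 to 1.22), Cd33 0.72 (0.44 to 1.14), Vav1 0.93 (0.36 to 2.20) and Plcg2 1.34 (0.60 to 2.92). In neuron-poor nuclei Trem2 had a ratio of 1.07 (0.87 to 1.30), and none of the 4 genes with enough UMIs was past 1.5-fold, against 14.3% of 5156 genes higher and 18.7% lower. Over reference UMIs, which shift every log2 ratio by -0.43, Trem2 was lower in P301S/EKO, with a ratio of 0.81 (0.71 to 0.93), as were Tyrobp at 0.72 (0.56 to 0.93), Inpp5d at 0.68 (0.51 to 0.91) and Cd33 at 0.53 (0.33 to 0.84). The direction of Trem2 therefore turned with the denominator, and among the reference genes Tmem119, a homeostatic microglial gene, was itself 4.21-fold higher in P301S/EKO and C1qa had a ratio of 0.93.

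Around the chain, over all UMIs, 4 of 11 measured ITIM receptors and phosphatases and 6 of 18 measured kinases and scaffolds stood at least 1.5-fold lower in P301S/EKO, set against P301S, where 19.4% of all genes did. Over reference UMIs, which shift every log2 ratio by -0.43, 7 of the 11 and 10 of the 18 did. No share of all genes was taken over that denominator. Lilrb4a was at 27.2 CPM in P301S/EKO and 89.6 CPM in P301S, a ratio of 0.30 (0.18 to 0.49). Ptprc was at 59.6 CPM in P301S/EKO and 153 CPM in P301S, a ratio of 0.39 (0.28 to 0.54), and Blnk had a ratio of 0.44 (0.24 to 0.76). Ms4a7 had 3 UMIs in P301S/EKO and 41 in P301S, a ratio of 0.13 (0.03 to 0.40). Over all UMIs none of the 7 other DAP12 or ITAM receptors was past 1.5-fold, over reference UMIs 1 was lower by as much, and Csf1r, the CSF1 receptor whose signal also runs through DAP12, had a ratio of 1.38 (1.20 to 1.59).

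**Figure D2:**
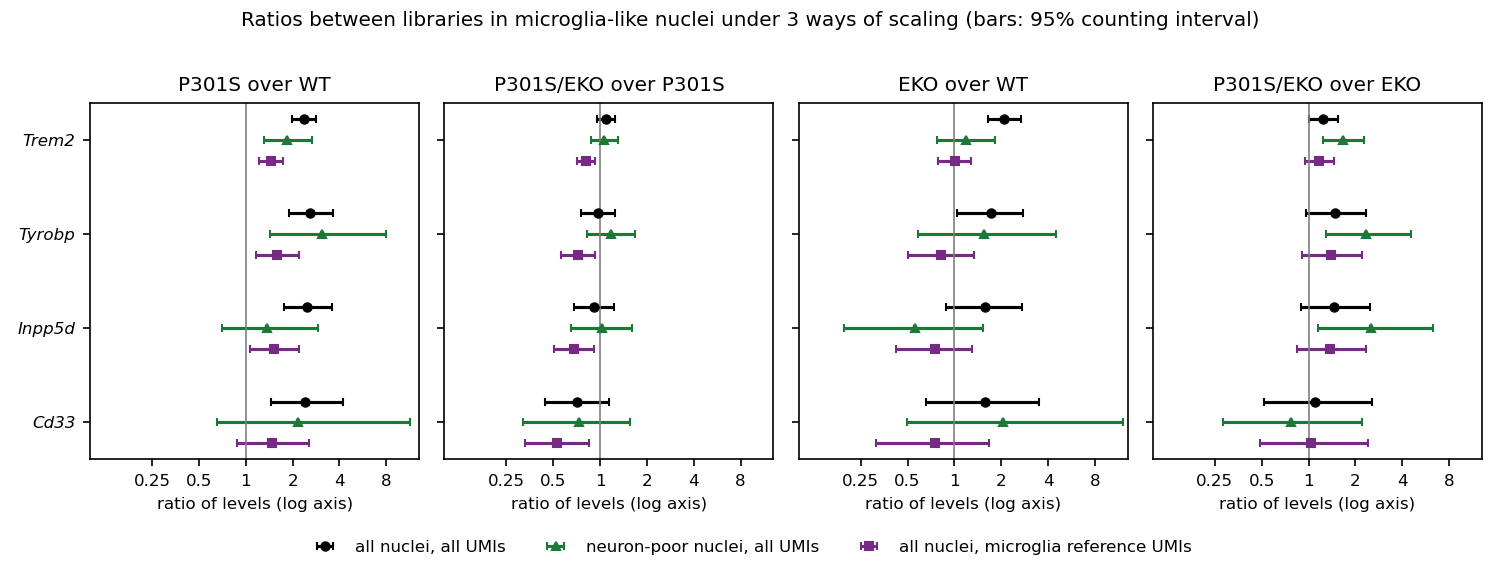
Ratios of Trem2, Tyrobp, Inpp5d and Cd33 in microglia-like nuclei for the 4 comparisons, on a log axis with 95% counting intervals. Circles divide by all UMIs, triangles do so in neuron-poor nuclei, and squares divide by microglia reference UMIs. The P301S over WT ratios of Trem2 and Tyrobp lie above 1 in all 3 settings, while for EKO over WT their intervals leave out 1 over all UMIs alone.

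The comparison of EKO with WT asks whether Apoe loss alone goes with a difference. Over all UMIs, Trem2 was 2.09-fold higher in EKO (1.63 to 2.67) and Tyrobp 1.72-fold (1.04 to 2.78), and all 4 genes with enough UMIs were at least 1.5-fold higher, against 12.2% of 7936 genes higher and 18.5% lower. Inpp5d and Cd33 each had a ratio of 1.56, with intervals that included 1. The reference genes were 2.08-fold higher in EKO. Over them Trem2 had a ratio of 1.00 (0.78 to 1.28) and Tyrobp 0.82 (0.50 to 1.33), and in neuron-poor nuclei Trem2 had a ratio of 1.18 (0.77 to 1.83) and Inpp5d 0.56 (0.20 to 1.53). All 7 measured genes of other DAP12 or ITAM receptors were likewise past 1.5-fold over all UMIs and 1 was over reference UMIs, and Fcer1g, at a ratio of 2.66 over all UMIs, had 1.28 over reference UMIs. Plcg2, with 7 UMIs in EKO and 4 in WT, had a ratio of 5.47 (1.39 to 25.5), which over reference UMIs was 2.63 (0.67 to 12.2).

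The comparison of P301S/EKO with EKO asks how mutant tau stands where Apoe is lost. Over all UMIs none of the 5 genes with enough UMIs was past 1.5-fold, against 15.1% of 7233 genes higher and 10.3% lower. Trem2 had a ratio of 1.24 (1.00 to 1.55), Tyrobp 1.47 (0.96 to 2.32) and Inpp5d 1.46 (0.89 to 2.49). Over reference UMIs Trem2 had a ratio of 1.17 (0.94 to 1.46) and Tyrobp 1.39 (0.91 to 2.19). In neuron-poor nuclei Trem2 was 1.66-fold higher in P301S/EKO (1.23 to 2.28), Tyrobp 2.35-fold (1.30 to 4.56) and Inpp5d 2.51-fold (1.15 to 6.25), so that all 3 genes with enough UMIs were past 1.5-fold, against 16.4% of 3272 genes higher and 14.1% lower. Outside the chain, Lat2 was at 37.6 CPM in P301S/EKO and 9.53 CPM in EKO, a ratio of 3.94 (1.22 to 20.2). Lilrb4a had 21 UMIs in P301S/EKO and 0 in EKO. That is 2.86-fold higher against a floor of 3 UMIs in EKO, with a lower counting limit of 2.12.

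The tau ratio of Trem2 without Apoe, divided by that with Apoe, was 0.52 (0.40 to 0.69) over all UMIs. It was 0.81 (0.62 to 1.06) over reference UMIs and 0.90 (0.57 to 1.42) in neuron-poor nuclei. For Tyrobp the same quotient was 0.57 (0.34 to 0.95) over all UMIs and 0.76 (0.29 to 2.01) in neuron-poor nuclei. A smaller tau ratio of Trem2 and Tyrobp without Apoe was thus seen over all UMIs, and in the other settings their intervals included 1. For Inpp5d the quotient was 0.59 (0.32 to 1.06) over all UMIs and 1.83 (0.67 to 4.99) in neuron-poor nuclei. Over all UMIs the intervals of Plcg2, Cd33 and Vav1 also included 1, and Syk, on few UMIs, had 0.07 (0.01 to 0.38).

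Within the microglia-like class, Trem2 levels varied with the neuronal RNA of the nuclei. In nuclei with at most 25% of the CA1 neuronal share Trem2 was at 1136 CPM in P301S/EKO (75 nuclei), 827 in P301S (63), 583 in EKO (34) and 256 in WT (10 nuclei and 4 UMIs). In nuclei above 75% it was at 281 CPM in P301S/EKO, 281 in P301S, 345 in EKO and 123 (95.2 to 156) in WT. Per 1000 reference UMIs, P301S/EKO nuclei at or under 25% had 56.8 Trem2 UMIs (46.2 to 69.0) and those above 75% 41.5 (33.3 to 51.0). The values were 61.0 (49.8 to 74.1) and 49.5 (41.5 to 58.6) in P301S. In EKO they were 33.6 (21.7 to 49.6) and 50.1 (35.4 to 68.7). The intervals overlapped within each of these libraries, but overlap does not show that values are equal, and ratios between ranges were not taken. The WT value of the lowest range rests on 10 nuclei and gives no order. In WT, nuclei from 25% to 50% had 57.9 Trem2 UMIs per 1000 reference UMIs (40.1 to 80.9). Those above 75% had 30.7 (23.8 to 39.0), an interval below the former.

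**Figure D3:**
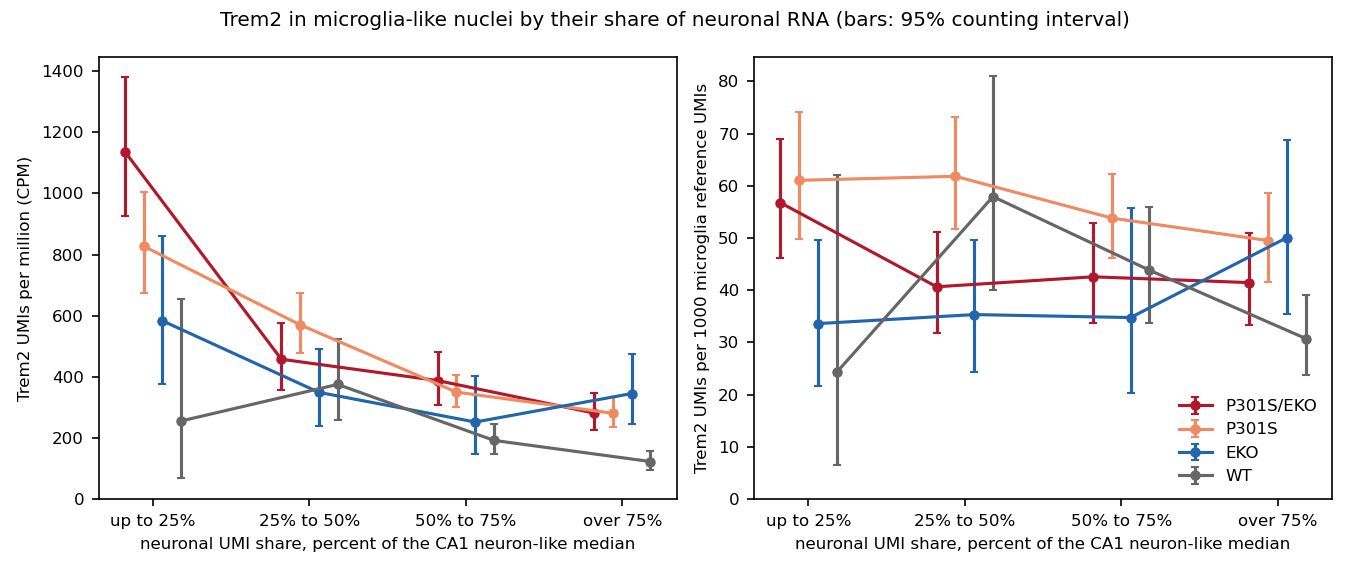
Trem2 in microglia-like nuclei grouped by their share of neuronal UMIs, as CPM in the left panel and per 1000 microglia reference UMIs in the right one, with 95% counting intervals. In both libraries with the tau transgene the CPM is highest in the nuclei with least neuronal RNA, 1136 and 827, and lowest in those with most.

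Across classes, the microglia-like nuclei held 73.0% of all Trem2 UMIs, 79.6% of Inpp5d, 63.1% of Cd33, 62.9% of Vav1, 56.1% of Tyrobp, 44.8% of Syk, 32.3% of Plcg2 and 18.2% of the 11 Pik3ap1 UMIs. Summed over libraries, Trem2 was at 343 CPM in microglia-like nuclei, followed by 40.3 in fibroblast-like (10 UMIs), 29.6 in choroid plexus epithelium-like (4 UMIs), 22.1 in endothelial cell-like, 18.7 in astrocyte-like, 17.9 in oligodendrocyte-like and 17.1 in inhibitory neuron-like nuclei. CA1 neuron-like nuclei had 13.6 CPM, pericyte or smooth muscle-like 13.2 (1 UMI), oligodendrocyte precursor-like 12.5 (6 UMIs), subicular or cortical excitatory neuron-like 11.0, dentate granule neuron-like 9.81 and CA2 or CA3 neuron-like 8.92. From the fibroblast-like class downwards, neighbours in this order did not differ beyond their counting intervals. Over the 4 libraries Trem2 ranged from 172 to 444 CPM in microglia-like nuclei and from 4.11 to 33.4 CPM in dentate granule neuron-like nuclei.

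To set the UMIs outside microglia against free microglial RNA, they were divided by the number that the C1qa, C1qb and C1qc UMIs of the class carry at the ratio seen in microglia-like nuclei. The intervals of these quotients take that expected number as fixed, so they are too narrow. For Plcg2 it rests on 41 and for Syk on 30 UMIs in microglia-like nuclei. A limit close to 1 therefore does not settle a difference from the ratio. Against that ratio, Trem2 was close to 1 in every class, from 0.75 in oligodendrocyte precursor-like to 1.39 (1.07 to 1.76) in CA1 neuron-like nuclei, and CA1 was the one class whose interval left out 1. The source of the Trem2 UMIs outside microglia was not tested beyond this ratio. Inpp5d stood at or below the ratio in neurons, with 0.20 (0.02 to 0.71) in dentate granule neuron-like nuclei, and above it in endothelial cell-like nuclei, with 11 UMIs or 2.16-fold (1.08 to 3.86). P301S gave 6 of these 11, and without it, a choice made after seeing the data, the value was 2.00-fold (0.65 to 4.66). Tyrobp stood 1.60- to 2.84-fold above it in the classes of neurons, oligodendrocytes and their precursors, astrocytes and endothelial cells, with an interval that included 1 in the CA2 or CA3 class. Summed over all neuron classes it had 64.3 UMIs per 1000 C1q UMIs in P301S/EKO, 67.4 in P301S, 62.3 in EKO and 57.7 in WT, against 28.9, 33.6, 25.4 and 30.6 in microglia-like nuclei.

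Plcg2, the phospholipase, stood further above the C1q ratio in dentate granule neuron-like and endothelial cell-like nuclei than Trem2, Tyrobp and Inpp5d did. Dentate granule neuron-like nuclei held 30 Plcg2 UMIs or 7.01 CPM (4.73 to 10.0), where the C1q ratio gives 1.82 UMIs, 16.5-fold above it (11.2 to 23.6). In these nuclei it was at 5.94 CPM (7 UMIs) in P301S/EKO, 13.4 CPM (4 UMIs) in P301S, 6.46 CPM (11 UMIs) in EKO and 7.26 CPM (8 UMIs) in WT, with overlapping intervals. It was counted there in all 4 libraries. Endothelial cell-like nuclei held 10 Plcg2 UMIs or 13.8 CPM, 13.4-fold above the ratio (6.41 to 24.6). Of these, 1 was in P301S/EKO, 7 in P301S, 0 in EKO and 2 in WT. Without P301S, again a choice made after seeing the data, Plcg2 was at 5.63 CPM in this class (1.16 to 16.5), 6.82-fold above the ratio (1.41 to 19.9), and in dentate granule neuron-like nuclei at 6.53 CPM (4.27 to 9.57). In subicular or cortical excitatory neuron-like nuclei, which served as a comparison, Plcg2 had 10 UMIs or 1.22 CPM, 2.80-fold above the ratio (1.34 to 5.16). Plcg2 was also counted in other glial and stromal classes, with 7 UMIs in oligodendrocyte-like, 4 in oligodendrocyte precursor-like and 3 in fibroblast-like nuclei. Its highest value in a single library was 6.75, 21.9 and 22.3 CPM in the same order. Plcg2 UMIs outside microglia were therefore not particular to dentate granule neuron-like and endothelial cell-like nuclei. Dentate granule neuron-like nuclei and endothelial cell-like nuclei had lower Trem2 levels than microglia in all 4 libraries.

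Syk also had UMIs beyond the C1q ratio outside microglia. The subicular or cortical excitatory class held 18 Syk UMIs or 2.20 CPM, 6.72-fold above the ratio (3.98 to 10.6), with 8 UMIs in P301S/EKO, 3 in P301S, 4 in EKO and 3 in WT. CA1 neuron-like nuclei held 0 Syk UMIs, which allows up to 0.75 CPM.

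**Figure D4:**
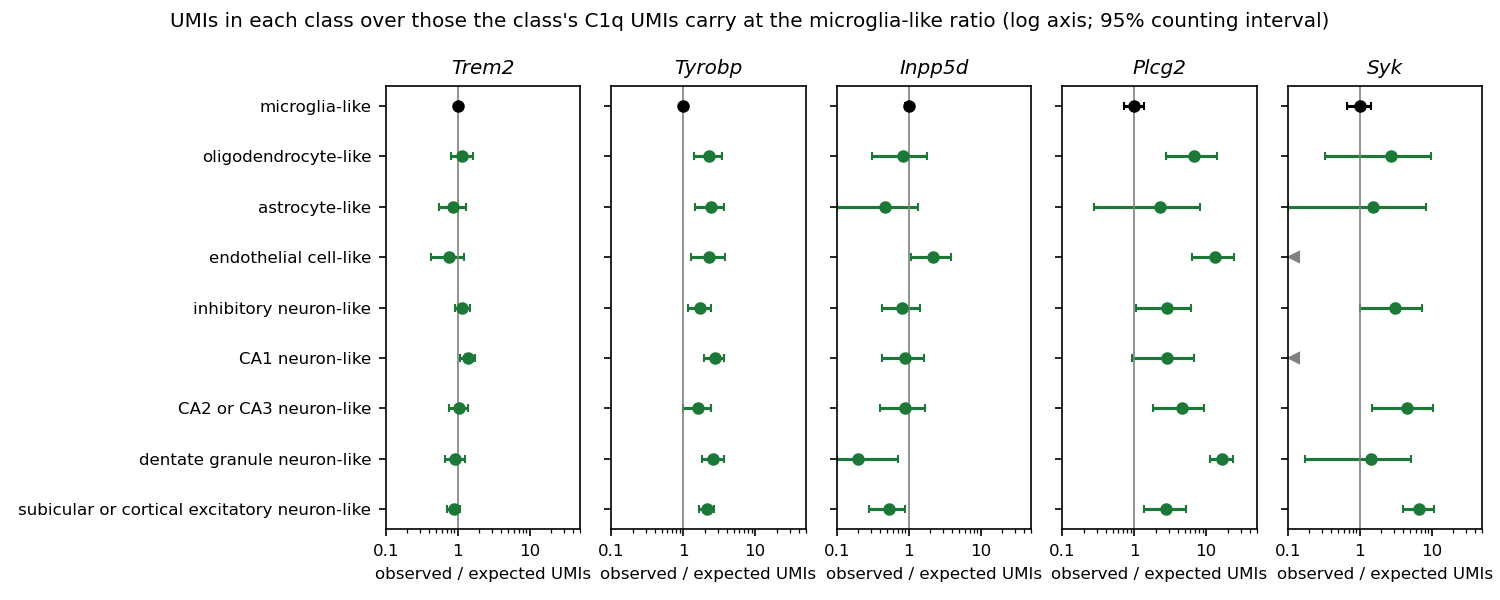
UMIs of 5 genes in each class over the number that the class's C1q UMIs carry at the microglia-like ratio, summed over the 4 libraries, on a log axis with 95% counting intervals. The intervals take that expected number as fixed and are too narrow. The grey line marks the microglial ratio, grey arrows are counts of 0, and intervals are drawn down to 0.1. Trem2 lies near 1 in every class, and Plcg2 stands at 16.5 in dentate granule neuron-like and 13.4 in endothelial cell-like nuclei (6.82 without P301S).

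The genes with the pattern most like each of the chain's 4 main genes were taken by Pearson correlation of log2(CPM + 10) over 49 sums of a class in a library, among 11088 genes. These sums share libraries and free RNA, so the correlations describe them only. For Trem2 they were C1qc (r = 0.94), Ctss, C1qa, C1qb and Lag3, and for Tyrobp C1qb (r = 0.89), C1qa, C1qc, Laptm5 and Ctss. For Inpp5d they were Fcrls (r = 0.90), Vsir, Ptprc, Lag3 and Pld4. For Plcg2 the highest was Pcdhga11 (r = 0.65), followed by Tyrobp, Cd14, Tmem219 and Dcps. Within the chain, Trem2 had r = 0.83 with Inpp5d, 0.80 with Tyrobp, 0.73 with Cd33 and 0.42 with Plcg2.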

How the data were processed

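The deposited files hold UMI counts per gene and barcode, which the authors made with Cell Ranger on mm10 and analysed with Seurat, per the submitters' processing notes. The sources used here give neither their versions nor whether intron reads counted. The 8 genes and all lists were chosen with earlier results of these data known. The text names the 8 genes, and per list up to 3 genes with the highest and lowest ratio whose interval leaves out 1, from which examples were taken.

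Kept barcodes had 200 genes or more and mitochondrial UMIs of 5% or less. Scrublet called at most 1 doublet a library, so the highest scores were removed at 0.8% per 1000 barcodes. Nuclei were clustered with scanpy 1.11.5 in Python 3.11.15, on scikit-learn 1.9.0 and igraph 0.11.9 (2000 variable genes, 30 components, 15 neighbours, Leiden resolution 1), giving 21 clusters. A cluster was named from at least 3 markers at 1.5-fold or more, with at least 1 among its top 10 genes. Counts were summed per class and library. Log2 ratios carry a prior of 0.5 UMI, and ratios of named genes are plain. Intervals are exact Poisson, conditional binomial or Clopper-Pearson at 95% (scipy 1.17.1) and were checked on simulated counts. Molecules of 1 nucleus are not independent, so they understate the error. Total UMIs per library were 8369762 to 14251675.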

Additional observations from a re-analysis of the deposited data

Results flagged for a closer look

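Syk, the kinase that binds the phosphorylated ITAM, had ratios in microglia-like nuclei that lay on opposite sides of 1 under the same contrast. The ratio of P301S/EKO over EKO was 0.136, with 3 UMIs in P301S/EKO and 9 in EKO, while that of P301S over WT was 1.90, with 13 UMIs in P301S and 5 in WT. Likewise, the ratio of P301S/EKO over P301S was 0.404 and that of EKO over WT 5.63. With 1 library per genotype the difference was not tested, and these 4 ratios share the same 30 UMIs.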

How the results depend on the processing

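With 1 library per genotype no replicate could be left out. No paired analysis was possible because each genotype has 1 library with no replicate number. Recalculated under each alternative, 40 medians over the chain stayed within the counting interval of the median reported and 4 did not. Over microglia reference UMIs, the median log2 ratio of P301S over WT was 0.57 and that of EKO over WT -0.34. Over reference UMIs without C1qa, C1qb and C1qc, a setting chosen after seeing the data, the median of P301S/EKO over P301S was -0.74 and that of EKO over WT -0.35. For EKO over WT, the log2 ratio of Tyrobp was -0.28 in both of these settings, and that of Trem2 was -0.0039 in the second. Of the single-gene ratios, 179 stayed within their interval, 28 moved beyond it, and 3 that were past 1.5-fold with an interval leaving out 1 turned sign. Counting also ratios whose interval included 1, 31 had the other sign than reported, 12 of them over reference UMIs. Median-of-ratios scaling, free RNA subtraction, a minimum of 500 genes per nucleus without new clusters, and keeping doublets moved none. Counts limit Plcg2, Syk, Vav1 and Pik3ap1 most.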
